A study of Mus musculus with 24 samples.

Results

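The genes described here carry or restrain the traffic of molecules across brain endothelium by vesicles and pores. They are 8 genes picked by symbol, namely Plvap, Cav1, Cav2, Mfsd2a, Tfrc, Lrp1, Ager and Cltc, out of 17270 genes in the table. All 8 were found and all 8 were among the 15982 genes tested. RNA was sequenced from brain microvessels of male C57BL/6J mice aged 10 to 12 weeks after 60 min transient middle cerebral artery occlusion (tMCAO) or sham surgery, in which the filament was withdrawn at once. Vessels were taken at 24 h or 7 days from the ipsilateral and the contralateral hemisphere, which gave 8 groups of 3 libraries each, and each library held the hemispheres of 3 pooled mice. The labels name no transgenic allele, and sham mice had the same surgery without a lasting occlusion. Values are normalized counts, that is, reads divided by a size factor for each library.

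In most organs, endothelium passes proteins through caveolae, flask-shaped pits built from caveolins, and in some beds through pores closed by a diaphragm of PLVAP. The blood-brain barrier is known for few caveolae and no fenestrae, a state that the lipid transporter MFSD2A helps to keep. Iron and lipoproteins cross instead by receptors such as TFRC and LRP1, which are taken up in pits coated with clathrin, while RAGE, the product of Ager, is known to carry amyloid-beta from blood to brain and to bind S100 proteins.

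The libraries totalled 15924780 to 18787932 normalized counts, and replicates of a group correlated at 0.967 to 0.988 on the log2 scale. All 10 endothelial markers were detected, with a sum of 127150 to 180623 per library, while the sum of 8 neuronal markers was 493 to 14268. The highest neuronal sum belonged to contralateral replicate 1 at 7 days after tMCAO, where the other replicates had 4191 and 5135. In ipsilateral vessels the neuronal markers were lower after tMCAO than after sham surgery (5 of 8 passed the test at 24 h and 8 of 8 at 7 days), and neutrophil and monocyte markers were higher (7 of 7 at 24 h and 1 of 7 at 7 days). Of all tested genes, 8.23% were lower and 10.0% higher at 24 h, and 9.95% lower and 3.27% higher at 7 days. In such bulk samples, fewer cells of a type and less RNA per cell cannot be told apart.

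Compared with sham, ipsilateral vessels at 24 h post-stroke held less Mfsd2a and less Tfrc, and at 7 days they held more Ager. A gene passed the test with an adjusted p under 0.05 (limma, Benjamini-Hochberg over all tested genes) and a log2 difference above 0.585 in size, which is a change of 1.5-fold. At 24 h, 2 of 8 genes were lower, beside 8.23% of all tested genes, and 0 of 8 were higher, beside 10.0% of all genes. By limma's unadjusted p under 0.05 none of the 8 was higher either, and 2 of 8 differed in all (42.1% of all genes). At 7 days, 1 of 8 was higher (3.27% of all genes) and 0 of 8 were lower (9.95%), with Lrp1 lower at an unadjusted p of 0.017, and 3 of 8 differed at an unadjusted p under 0.05 (29.3% of all genes). The difference between the 7-day and the 24 h stroke effect, tested as an interaction, passed for Ager alone, 1 of 8 in the direction of higher values (2.43% of all genes) and 0 of 8 in the other (5.68%). The smallest unadjusted p among the other members was 0.051 for Mfsd2a. Libraries of the groups did not overlap for 2 of 8 genes at 24 h (49.0% of all genes), both lower and 0 higher (25.0%), and for 2 of 8 at 7 days (30.0%). The comparisons with sham and with the contralateral hemisphere share the ipsilateral tMCAO libraries. The plot of the estimates shows Mfsd2a and Tfrc below 0 at 24 h and Ager above 0 at 7 days, each with an interval clear of 0. At 7 days the 95% intervals of Plvap (0.13 to 1.58) and Lrp1 (-0.85 to -0.09) were clear of 0 too, although neither gene passed.

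**Figure D1:**
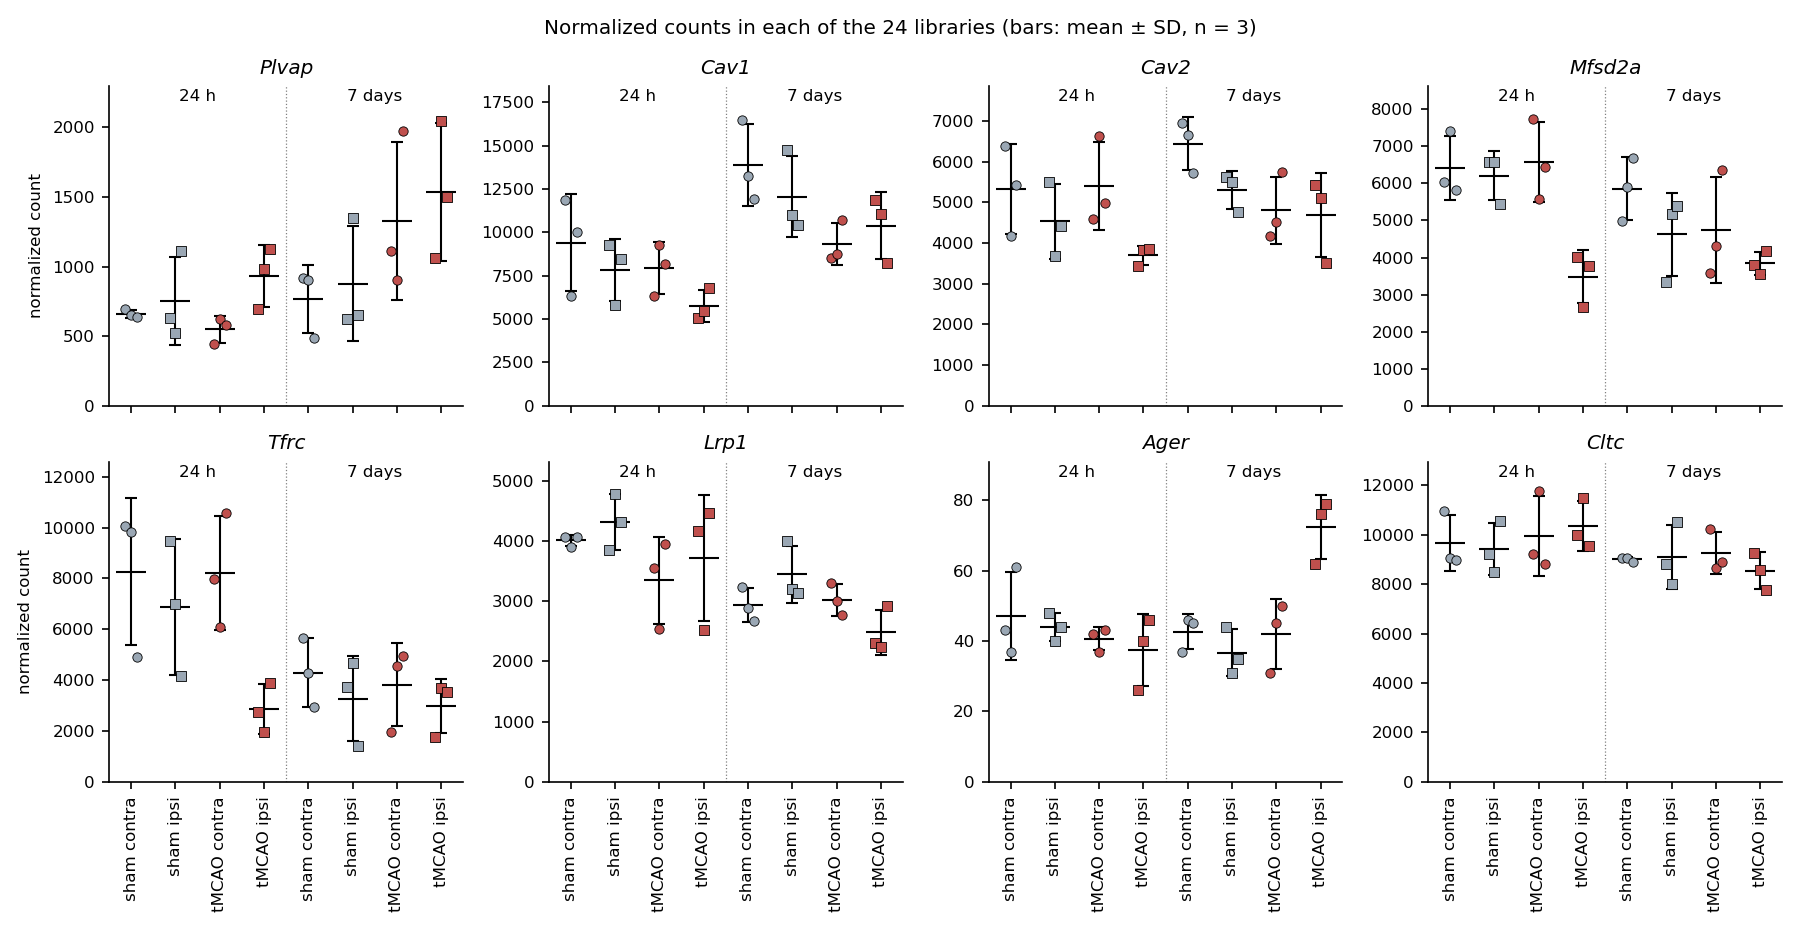
Normalized counts (y axis, from 0) of each gene in the 24 libraries, with sham in grey, tMCAO in red, circles for contralateral and squares for ipsilateral libraries, and bars for the mean ± SD of 3 libraries. Ipsilateral Mfsd2a and Tfrc are low at 24 h after tMCAO, and the 3 Ager values at 7 days after tMCAO, 62 to 79, lie above all other libraries.

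**Figure D2:**
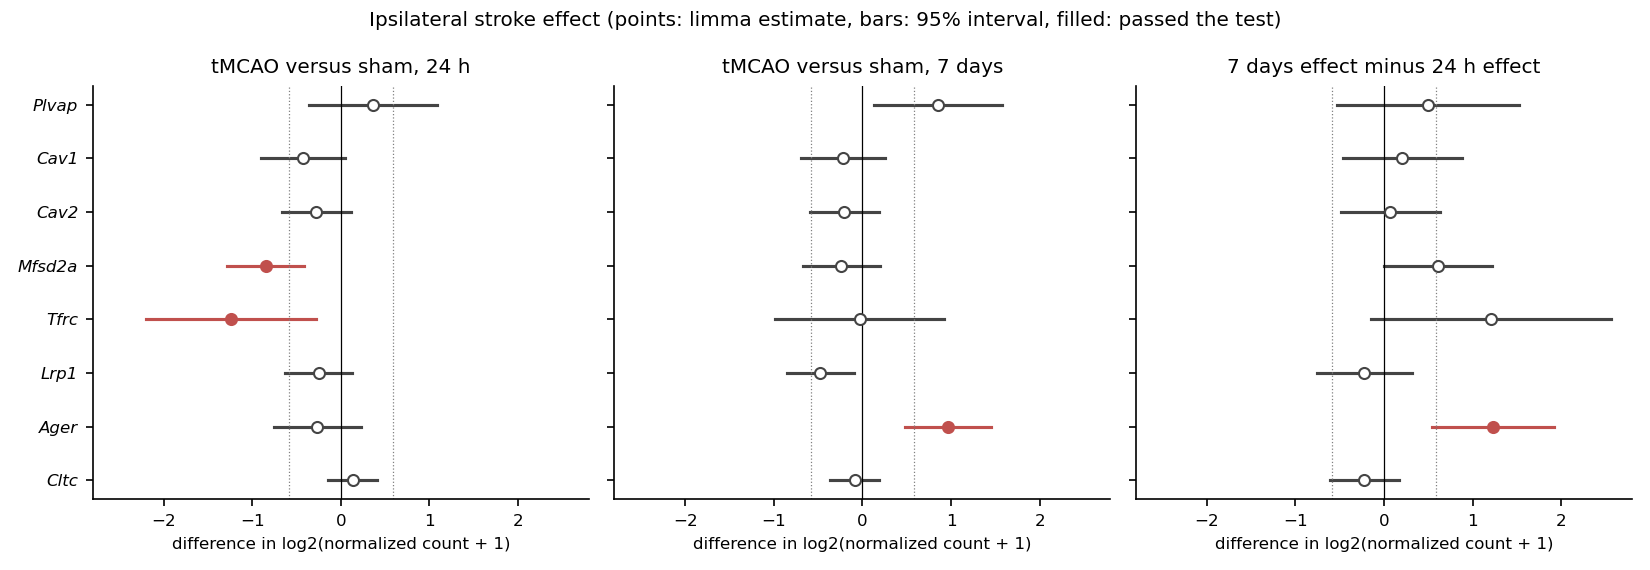
Difference in log2(normalized count + 1) between tMCAO and sham ipsilateral vessels at 24 h and at 7 days, and the 7-day effect minus the 24 h effect. Points are limma estimates, bars are 95% intervals, filled red points passed the test and dotted lines mark a change of 0.585. Ager reaches 0.97 at 7 days and its interaction is 1.23.

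Exon length sets how many reads a transcript gives, so levels of different genes were compared per kilobase only. Over the 12 sham libraries Cav1 was the most abundant of the 8, with 3135 ± 918 normalized counts per kilobase (SD, n = 12), ahead of Mfsd2a with 2568 ± 466 and Cav2 with 1621 ± 300 per kilobase. Cltc reached 1095 ± 106 and Tfrc 917 ± 457 per kilobase. Lower levels were measured for Plvap, 385 ± 129 per kilobase, and for Lrp1, 207 ± 35.9 per kilobase. Ager was far below the rest with 19.9 ± 3.59 per kilobase. Of the tested genes with a length, 98.85% lay below Cav1 and only 28.02% below Ager on this scale. The spread among the 18 control libraries (both sham hemispheres and the contralateral tMCAO hemispheres) differed as much as the levels did. The highest of these control values of Tfrc was 7.53 times the lowest and that of Plvap 4.45 times, whereas for Cltc it was 1.48 times.

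Plvap encodes the diaphragm protein of fenestrae and of caveolae in leaky vessels. The gene lies at chr8:71497765-71511752 on the minus strand (mm10). At 24 h its ipsilateral values were 628, 521 and 1108 after sham surgery and 692, 980 and 1127 after tMCAO, so the groups overlapped. At 7 days they were 621, 1351 and 654 after sham surgery and 1060, 2045 and 1502 after tMCAO, and here sham replicate 2 lay inside the tMCAO range. The log2 difference was 0.36 (SE 0.35) at 24 h, with an adjusted p of 0.45 by limma. At 7 days it was 0.86 (SE 0.35), with an adjusted p of 0.10 that missed the threshold. Without sham replicate 2 the 7-day difference was 1.22 and passed (adjusted p = 0.027). The contralateral side after tMCAO moved too, from 442, 624 and 583 at 24 h to 1114, 900 and 1969 at 7 days, with all 7-day libraries higher, as in 8.23% of all genes. This change of 1.20 on the log2 scale (SE 0.35) had an unadjusted p of 0.0024 and an adjusted p of 0.14 by limma. Its starting values at 24 h lay below all contralateral sham values of 24 h (694, 655 and 635), as in 4.24% of all genes. The same low values are the reference when the hemispheres of tMCAO mice are compared at 24 h. In all, the 6 tMCAO libraries at 7 days held 900 to 2045 counts of Plvap, and the order of the group means put these groups at the top, although neighbours in that order mostly differed by less than 1 SD. Choroid plexus endothelium has fenestrae, so markers of choroid plexus tissue, though not of that endothelium itself, were counted beside Plvap. Their sum at 7 days ipsilaterally was 707 to 3263 after tMCAO and 16021 to 29225 after sham surgery, and 4 of 8 choroid plexus markers were lower (9.95% of all genes). Proliferation markers moved the opposite way, 301 to 378 after tMCAO against 65 to 69 after sham surgery in sum, and 5 of 5 were higher (3.27% of all genes). Their part in the Plvap values was not tested. Plvap overlaps Gtpbp3 on the opposite strand, and their exons share 0 bases. Gtpbp3 differed by 0.46 at 24 h (adjusted p = 0.012, limma), under the fold limit, and by 0.09 at 7 days (adjusted p = 0.72).

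Cav1 and Cav2 code for caveolin-1, the scaffold of the caveolar coat, and caveolin-2, which joins it in hetero-oligomers. They are neighbours on chromosome 6, Cav2 at chr6:17281185-17289115 and Cav1 at chr6:17306335-17341452, both on the plus strand of mm10, with 17219 bases between the end of Cav2 and the start of Cav1. Ipsilateral Cav1 at 24 h was 9253, 5806 and 8442 after sham surgery and 5057, 5448 and 6796 after tMCAO. Ipsilateral Cav2 at 24 h was 5511, 3687 and 4415 after sham surgery and 3435, 3822 and 3852 after tMCAO. Both sets of groups overlapped, with sham replicate 2 the lowest sham value of each. The log2 differences of -0.43 (SE 0.23) for Cav1 and -0.28 (SE 0.19) for Cav2 did not pass (adjusted p = 0.16 and 0.27, limma). At 7 days the differences were -0.22 for Cav1 and -0.20 for Cav2, again short of the threshold (adjusted p = 0.59 and 0.53). The 95% intervals at 24 h ran from -0.90 to 0.05 for Cav1 and from -0.67 to 0.12 for Cav2.

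Between 24 h and 7 days post-stroke, ipsilateral Cav1 rose from 5057, 5448 and 6796 to 11890, 11073 and 8207, without overlap. The rise of 0.84 on the log2 scale (SE 0.23) passed the test (adjusted p = 0.014, limma), but no longer did so without tMCAO replicate 1 of either time point. In this comparison 3 of 8 genes did not overlap (34.2% of all genes), and 2 of 8 were higher at 7 days (3.72%), Cav1 and Ager, and 0 of 8 were lower (8.44%), since Lrp1 with -0.55 (adjusted p = 0.040) stayed under the fold limit. In contralateral sham vessels Lrp1 differed by -0.46 between the time points (adjusted p = 0.36, limma). Its mean log2 level in ipsilateral sham vessels was 12.07 at 24 h and 11.74 at 7 days. Cav1 was also higher at 7 days in sham mice, by 0.63 ipsilaterally and 0.60 contralaterally on the log2 scale, at unadjusted p of 0.012 and 0.017 and adjusted p of 0.20 and 0.33. Whether a later time point, the time of collection or library preparation goes with this shift cannot be told apart. In the contralateral hemispheres at 7 days, Cav1 was 16490, 13250 and 11906 after sham surgery and 8527, 8781 and 10707 after tMCAO. All tMCAO libraries lay below all sham libraries, as in 4.76% of all genes. That difference of -0.57 had an unadjusted p of 0.022 and did not pass (adjusted p = 0.41, limma).

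The transcripts of the 2 caveolins rose and fell together from library to library. Across the 24 libraries Cav1 and Cav2 correlated at 0.84 (Pearson, log2 scale), and at 0.88 once group means were removed, libraries and scaling being shared. Their balance was less constant. The ratio of Cav1 to Cav2 counts was 1.38 to 1.91 in the 12 libraries of 24 h, with a median of 1.61, and 1.87 to 2.62 in the 12 libraries of 7 days, with a median of 2.12. Ipsilaterally after tMCAO it went from 1.43, 1.47 and 1.76 (lowest, middle and highest library) to 2.17, 2.19 and 2.34. The ratio was higher at 7 days without overlap in sham and tMCAO vessels of both hemispheres, by 0.30 to 0.53 on the log2 scale. Each of these 4 comparisons had a 2-sided exact permutation p of 0.1, the smallest that 3 against 3 allow, and 0.15 after adjustment over 6 comparisons. tMCAO against sham changed the ratio by -0.15 at 24 h and -0.01 at 7 days (exact permutation p = 0.3 and 0.9).

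**Figure D3:**
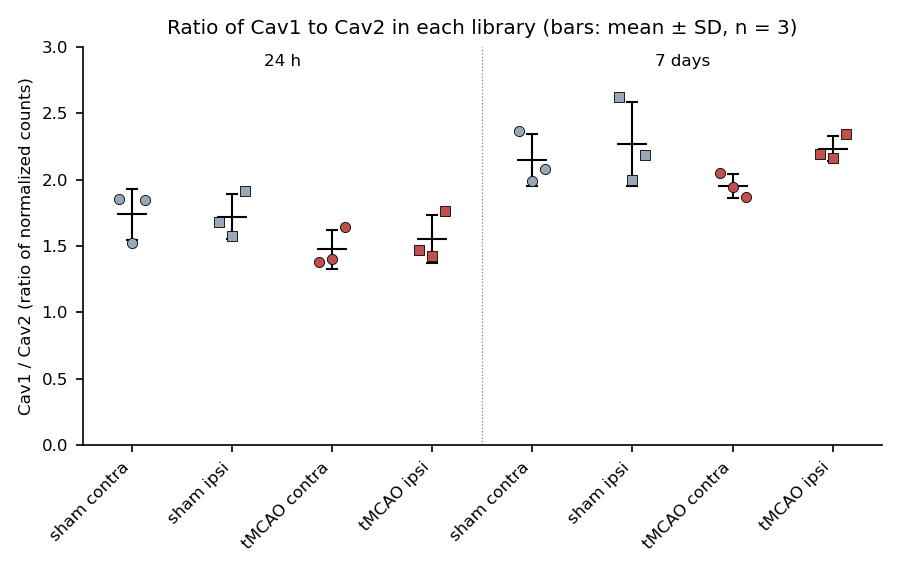
Ratio of Cav1 to Cav2 normalized counts (y axis, from 0) in each library, with sham in grey, tMCAO in red, circles for contralateral and squares for ipsilateral libraries, and bars for the mean ± SD of 3 libraries. The 12 values of 24 h reach at most 1.91 and those of 7 days begin at 1.87.

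Of 11 other genes of caveolae, 2 passed at 24 h, in opposite directions, and at 7 days 1 passed, which was higher. Of all tested genes, 18.3% passed at 24 h and 3.27% were higher at 7 days. Without single libraries these counts were 0 to 2 higher and 0 to 1 lower at 24 h, and 0 to 1 higher at 7 days. At 24 h Cavin3 rose by 0.74 and Cavin2, a cavin abundant in endothelium, fell by 0.63 (adjusted p = 0.036 and 0.015, limma). Flot1, a flotillin of membrane rafts, was higher by 0.63 at 7 days (adjusted p = 0.0052) and by 0.58 at 24 h, where it stayed just under the fold limit. The 7-day call of Flot1 was lost with quantile normalization (0.55, under the fold limit) and with endothelial centring (0.37, adjusted p = 0.12). The list's median was -0.10 at 24 h, beside -0.02 for all tested genes, and 0.25 at 7 days, beside 0.02. Centred on endothelial markers, the 7-day median of the caveolae list was -0.01.

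Mfsd2a codes for a transporter of lysophospholipids that carry docosahexaenoic acid into brain, and it is known to restrain caveolar transcytosis. It lies at chr4:122946850-122961188 on the minus strand. Its ipsilateral values at 24 h were 6578, 6588 and 5452 after sham surgery and 4021, 2666 and 3764 after tMCAO, with all tMCAO libraries below all sham libraries, as in 24.1% of all genes. Contralaterally they were 6046, 7408 and 5816 after sham surgery and 7732, 5576 and 6437 after tMCAO, which overlapped. Mfsd2a fell by 0.85 on the log2 scale ipsilaterally at 24 h against sham (SE 0.21, adjusted p = 0.0049, limma). Against the contralateral hemisphere of tMCAO mice it fell by 0.93 (SE 0.21, adjusted p = 0.0030). At 24 h between these hemispheres 2 of 8 genes were lower (5.14% of all genes), Mfsd2a and Tfrc, and 0 of 8 were higher (8.52%), while Plvap was higher by 0.75 at an unadjusted p of 0.043. Libraries did not overlap for 4 of 8 genes (40.8% of all genes), with Plvap higher (21.7%) and Cav2, Mfsd2a and Tfrc lower (19.1%). Cav2 differed by -0.53 (adjusted p = 0.046), under the fold limit, and passed with median centring. Both Mfsd2a calls held in every alternative run and without any single library.

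At 7 days the Mfsd2a values of the ipsilateral hemisphere were 3333, 5161 and 5385 after sham surgery and 3792, 3558 and 4178 after tMCAO. Sham replicate 1 lay below all tMCAO values, and the other sham replicates lay above them. The tMCAO values differed from those of 24 h by 0.16 on the log2 scale (adjusted p = 0.63). The 7-day stroke effect of -0.24 (SE 0.21, adjusted p = 0.49) and the interaction of 0.61 (SE 0.29, adjusted p = 0.19) did not pass. Ipsilateral sham vessels had 0.45 less Mfsd2a on the log2 scale at 7 days than at 24 h, at an unadjusted p of 0.043. Pericyte markers were also lower in ipsilateral vessels at 24 h, 61093 to 91632 in sum after tMCAO against 99364 to 123589 after sham surgery. Of these markers 3 of 8 passed the test (8.23% of all genes were lower), and their part in the Mfsd2a fall was not tested. The sum of endothelial markers was 134915 to 169883 after tMCAO and 127150 to 147340 after sham surgery. With libraries centred on these endothelial markers, Mfsd2a fell by 1.03 on the log2 scale.

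The promoters of the members that passed against sham are shown here, Mfsd2a and Tfrc (lower at 24 h) and Ager (higher at 7 days). Each sequence runs 5′ to 3′ from 250 bases before to 50 bases after a transcription start (RefSeq, GRCm38.p6). Capitals mark ACGTG, one form of the core to which hypoxia-inducible factors are known to bind. Other forms of that core, such as GCGTG, were not searched and are not marked. RefSeq entries were found for 7 of the 8 genes, Plvap not among them. The Mfsd2a window is chr4:122961139-122961438 on the minus strand, the Tfrc window is chr16:32608646-32608945 on the plus strand, for one of its 2 starts, and the Ager window is chr17:34597600-34597899 on the plus strand.
Mfsd2a: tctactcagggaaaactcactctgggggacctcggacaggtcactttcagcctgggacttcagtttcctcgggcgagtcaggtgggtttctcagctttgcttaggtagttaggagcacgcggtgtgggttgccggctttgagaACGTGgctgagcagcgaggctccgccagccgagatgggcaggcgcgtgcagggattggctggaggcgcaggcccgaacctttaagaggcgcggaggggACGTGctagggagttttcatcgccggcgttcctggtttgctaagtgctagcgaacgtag
Tfrc: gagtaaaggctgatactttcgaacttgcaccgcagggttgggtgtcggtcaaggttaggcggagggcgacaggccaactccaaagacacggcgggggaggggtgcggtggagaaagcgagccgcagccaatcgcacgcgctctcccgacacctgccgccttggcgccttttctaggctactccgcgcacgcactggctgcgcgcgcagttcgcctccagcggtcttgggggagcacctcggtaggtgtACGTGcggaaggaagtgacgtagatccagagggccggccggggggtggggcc
Ager: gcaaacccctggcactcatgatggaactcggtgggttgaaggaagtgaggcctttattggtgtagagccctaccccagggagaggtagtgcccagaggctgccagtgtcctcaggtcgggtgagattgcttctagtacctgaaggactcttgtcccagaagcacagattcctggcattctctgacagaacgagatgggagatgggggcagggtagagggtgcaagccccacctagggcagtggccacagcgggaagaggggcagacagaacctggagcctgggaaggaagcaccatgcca
Mfsd2a held ACGTG at 2 places, which began 107 and 9 bases before the start, Tfrc at 1 place 2 bases before the start, and Cav1 at 1 place on the opposite strand. Both strands were searched, and 19.62% of 32851 promoters of this length held the letters at least once. The Ager window held neither ACGTG nor the AP-1 letters TGANTCA, of which 7.81% of promoters held a copy. A match of letters describes the sequence only.

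Among 8 other genes of lipid uptake, 1 was higher at 24 h (10.0% of all genes). It was Fabp4, a fatty acid binding protein of capillary endothelium, which rose by 2.23 on the log2 scale (SE 0.54, adjusted p = 0.0044, limma). Slc27a1, the fatty acid transporter FATP1, fell by 0.68 at 24 h (adjusted p = 0.0048). Without single libraries 1 to 4 were higher. At 7 days 0 of 8 passed in either direction (13.2% of all genes), and 1 of them, Spns1, had an adjusted p under 0.05 with a change of 0.31 under the fold limit. With endothelial centring 2 of the list were lower at 7 days, and without single libraries 0 to 1 were.

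Tfrc, the transferrin receptor, brings iron into endothelium and on to the brain. It lies at chr16:32608920-32632794 on the plus strand. Its ipsilateral values at 24 h were 9466, 7007 and 4147 after sham surgery and 2764, 1941 and 3884 after tMCAO, and the lowest sham library lay just above the highest tMCAO library. Contralaterally they were 10069, 9813 and 4918 after sham surgery and 7985, 6090 and 10583 after tMCAO. At 7 days the ipsilateral values were 3709, 4670 and 1406 after sham surgery and 1760, 3675 and 3537 after tMCAO, which overlapped. The highest Tfrc values were thus those of control vessels at 24 h, and in ipsilateral vessels at 7 days sham and tMCAO libraries spanned like ranges.

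Tfrc fell by 1.24 on the log2 scale ipsilaterally at 24 h against sham (SE 0.46, adjusted p = 0.046, limma) and by 1.54 against the contralateral hemisphere (SE 0.46, adjusted p = 0.018). The call against sham was lost with quantile normalization (adjusted p = 0.050), with the replicate number as a block (adjusted p = 0.055) and without replicate 1 or 2 of either group. The call against the contralateral side was lost without contralateral replicate 3 or ipsilateral replicate 1 or 2 of the tMCAO mice. In same-numbered hemispheres Tfrc was lower ipsilaterally in 6 of 6 tMCAO pairs and in 5 of 6 sham pairs. The sizes differed at 24 h, with -1.65 to -1.45 on the log2 scale in tMCAO pairs and -0.49 to -0.09 in sham pairs. At 7 days they were -0.48 to -0.16 in tMCAO pairs and -1.06 to 0.12 in sham pairs. Cav1 and Cav2, which did not pass against sham, were lower ipsilaterally in 6 of 6 sham pairs and 4 of 6 tMCAO pairs. The 7-day stroke effect of Tfrc was -0.03 (95% interval -0.98 to 0.92) and the interaction of 1.21 (SE 0.65) did not pass (adjusted p = 0.24). From 24 h to 7 days Tfrc differed by -1.17 in ipsilateral sham vessels and by -1.18 in contralateral tMCAO vessels, at unadjusted p of 0.019 and 0.018, neither of which passed adjustment. Reticulocytes also carry Tfrc, so erythroid markers were counted beside it. Between tMCAO and sham 0 of 7 passed at either time (18.3% of all genes at 24 h and 13.2% at 7 days). Their sum was 1068 to 12556 in ipsilateral sham vessels of 24 h, 6875 to 20979 in ipsilateral tMCAO vessels of 24 h, 24182 to 76862 in ipsilateral sham vessels of 7 days and 3741 to 35288 in ipsilateral tMCAO vessels of 7 days. Over the 24 libraries the mean erythroid level and Tfrc correlated at -0.64 (Pearson, log2 scale), and the part of red cells was not tested.

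**Figure D4:**
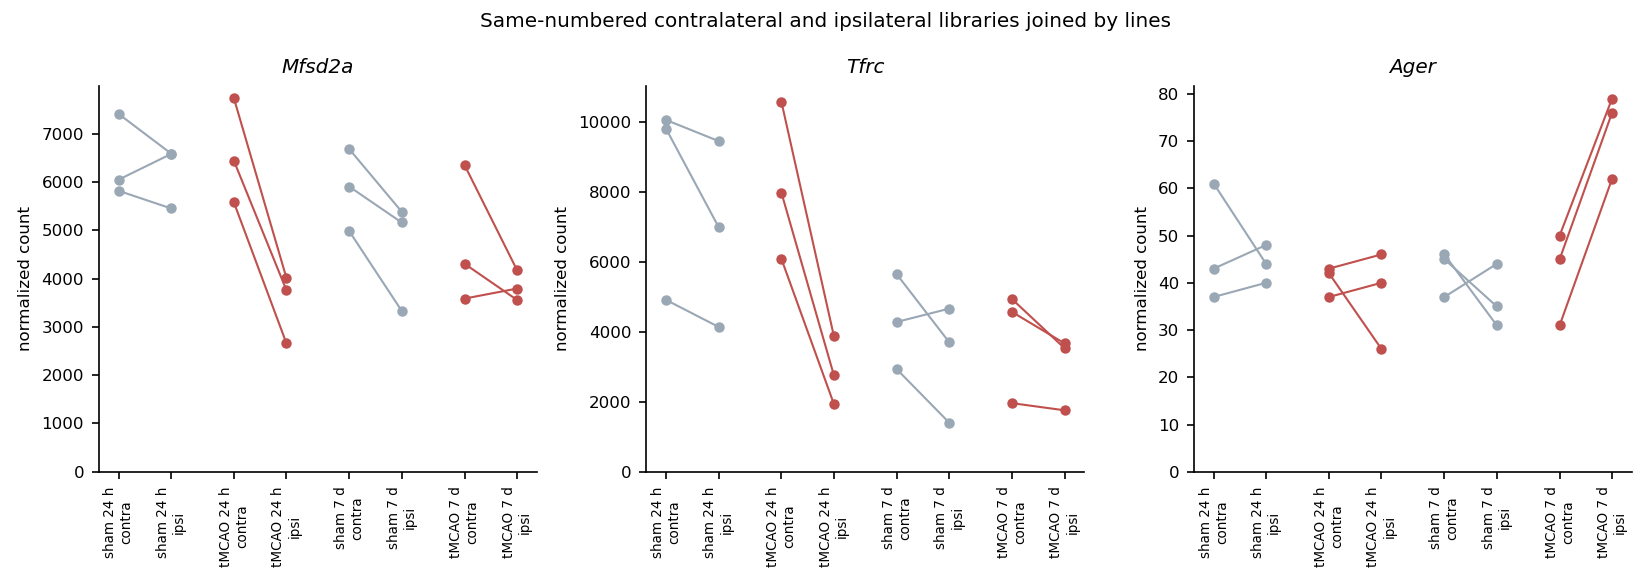
Normalized counts (y axis, from 0) of Mfsd2a, Tfrc and Ager in contralateral and ipsilateral libraries, with lines joining libraries of the same number, sham in grey and tMCAO in red. All 3 tMCAO pairs of 24 h slope down for Mfsd2a and Tfrc, and all 3 tMCAO pairs of 7 days slope up for Ager.

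The Tfrc transcript is known to be stabilized through iron-responsive elements, hairpins in its 3′ UTR that iron regulatory proteins bind when iron is low. The pattern searched was an unpaired C, an arm of 5 bases, the loop CAGTGN and an arm that pairs with the first. Pairs of G with T were allowed beside complementary bases. It was found at 4 sites, all in exon 19 of 19 of ENSMUST00000023486 on the plus strand of mm10. They lie at chr16:32631225-32631241, chr16:32631604-32631620, chr16:32631669-32631685 and chr16:32631716-32631732. Capitals mark the loop of 6 bases.
Tfrc site 1: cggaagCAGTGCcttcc
Tfrc site 2: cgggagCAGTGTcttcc
Tfrc site 3: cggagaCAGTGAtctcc
Tfrc site 4: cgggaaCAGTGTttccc
Of 14267 genes with a coding transcript, 216 (1.51%) held the pattern at least once and 1, Tfrc itself, held it 3 times or more. Fth1, Ftl1 and Slc40a1 each held it once in the 5′ UTR, where such an element is known to restrain translation.

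Of 14 other genes of iron handling, 3 passed at 24 h (2 higher, 1 lower) and 3 at 7 days (1 higher, 2 lower). Of all tested genes, 18.3% passed at 24 h and 13.2% at 7 days. Without any single library of the comparison, 1 to 3 were lower at 24 h and 1 at 7 days. Hmox1, the heme oxygenase that frees iron from heme, rose by 3.73 on the log2 scale at 24 h (SE 0.35, adjusted p = 5.8e-07, limma), from a mean of 357 to 5309. The ferritin chains were higher as well, Ftl1 by 0.71 at 24 h (adjusted p = 0.00044) and Fth1 by 1.01 at 7 days (adjusted p = 0.00077). Slc40a1, the iron exporter ferroportin, fell by 0.88 at 24 h and by 0.76 at 7 days (adjusted p = 0.0016 and 0.0071). Steap2, a reductase of iron, fell by 1.47 at 7 days (adjusted p = 0.042). The list's median of -0.05 at 24 h and 0.11 at 7 days stood beside -0.02 and 0.02 for all tested genes. Its genes moved in both directions.

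Lrp1 codes for a large receptor that clears amyloid-beta, apolipoprotein E and proteinase complexes, and mural cells and neurons carry it as well as endothelium. It spans chr10:127538161-127621148 on the minus strand. Its ipsilateral values at 7 days were 3992, 3200 and 3140 after sham surgery and 2297, 2236 and 2915 after tMCAO, with all tMCAO libraries below all sham libraries, as in 16.6% of all genes. At 24 h they were 3840, 4783 and 4316 after sham surgery and 4165, 2526 and 4459 after tMCAO, and tMCAO replicate 2 stood apart from the other replicates. The 7-day difference of -0.47 (SE 0.18) did not pass (adjusted p = 0.083, limma) and neither did the 24 h difference of -0.25 (adjusted p = 0.30). Centred on endothelial markers, the 7-day difference of Lrp1 was -0.73 and passed. Pericyte markers were 77933 to 84811 in sum at 7 days after tMCAO and 113576 to 137163 after sham surgery. Over the 24 libraries Lrp1 correlated at 0.72 with the mean pericyte level, at 0.74 with the fibroblast level and at -0.77 with the endothelial level (Pearson, log2 scale), and the part of these cells was not tested.

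Of 10 ligands and partners of LRP1, 2 were lower at 24 h, beside 8.23% of all tested genes. Apoe, the apolipoprotein that astrocytes and mural cells make, fell by 0.88 and Gulp1, an adaptor of the LRP1 tail, by 0.99 on the log2 scale (adjusted p = 0.0017 and 0.0070, limma). Plau, the proteinase urokinase, rose by 1.92 at 24 h (adjusted p = 8.1e-05) and differed by -0.64 at 7 days (adjusted p = 0.14). At 7 days 0 of 10 were lower (9.95% of all genes), and Apoe had an unadjusted p of 0.050 and Plau of 0.038. With endothelial centring, 2 of the list were lower at 7 days. The list's median was -0.19 at 24 h and 0.14 at 7 days.

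Cltc, the clathrin heavy chain that forms the coat of vesicles for Tfrc and Lrp1, was the steadiest of the 8 genes. It lies at chr11:86694351-86757565 on the minus strand. Ipsilateral values were 9215, 8510 and 10574 after sham surgery and 10003, 11490 and 9539 after tMCAO at 24 h. At 7 days they were 8814, 7985 and 10510 after sham surgery and 9276, 8554 and 7775 after tMCAO. The groups overlapped at both times. Its log2 difference was 0.13 at 24 h (95% interval -0.14 to 0.41) and -0.09 at 7 days (-0.36 to 0.19), so both intervals lay inside the fold limit of 0.585. Over all 24 libraries the highest Cltc value was 1.52 times the lowest. From 24 h to 7 days after tMCAO, ipsilateral Cltc was lower without overlap, as in 19.9% of all genes. That difference of -0.28 on the log2 scale did not pass (adjusted p = 0.15, limma).

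Of 33 other genes of the clathrin coat and its adaptors, 7 passed at 24 h (1 higher, 6 lower) and 5 at 7 days, which all fell. Of all tested genes, 18.3% passed at 24 h and 13.2% at 7 days, where 9.95% fell. Ap2s1, the small subunit of the adaptor AP-2, was higher by 0.59 at 24 h (adjusted p = 0.00020, limma), just over the fold limit. Snap91 fell by 1.29 at 24 h (adjusted p = 0.0066) and by 2.71 at 7 days (adjusted p = 1.4e-05), where its mean was 33.7 after tMCAO and 223 after sham surgery. Dnajc6, Dnm1, Amph and Sh3gl2 were also lower at both times, with log2 differences of -0.81 to -1.18 at 24 h and of -1.64 to -2.39 at 7 days. These 5 are known as forms that neurons use at synapses, and the neuronal markers named above were lower in the same libraries, with sums of 1733 to 2521 against 5045 to 5335 at 24 h and of 493 to 879 against 3780 to 7061 at 7 days. Their part in the counts was not tested. Fcho2, a nucleator of coated pits, fell by 0.64 at 24 h (adjusted p = 0.0055). Without any one library of the comparison, 3 to 4 of the list were lower and 0 to 2 higher at 24 h. The list's median was -0.15 at 24 h, beside -0.02 for all tested genes, and 0.02 at 7 days, the same as for all genes.

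**Figure D5:**
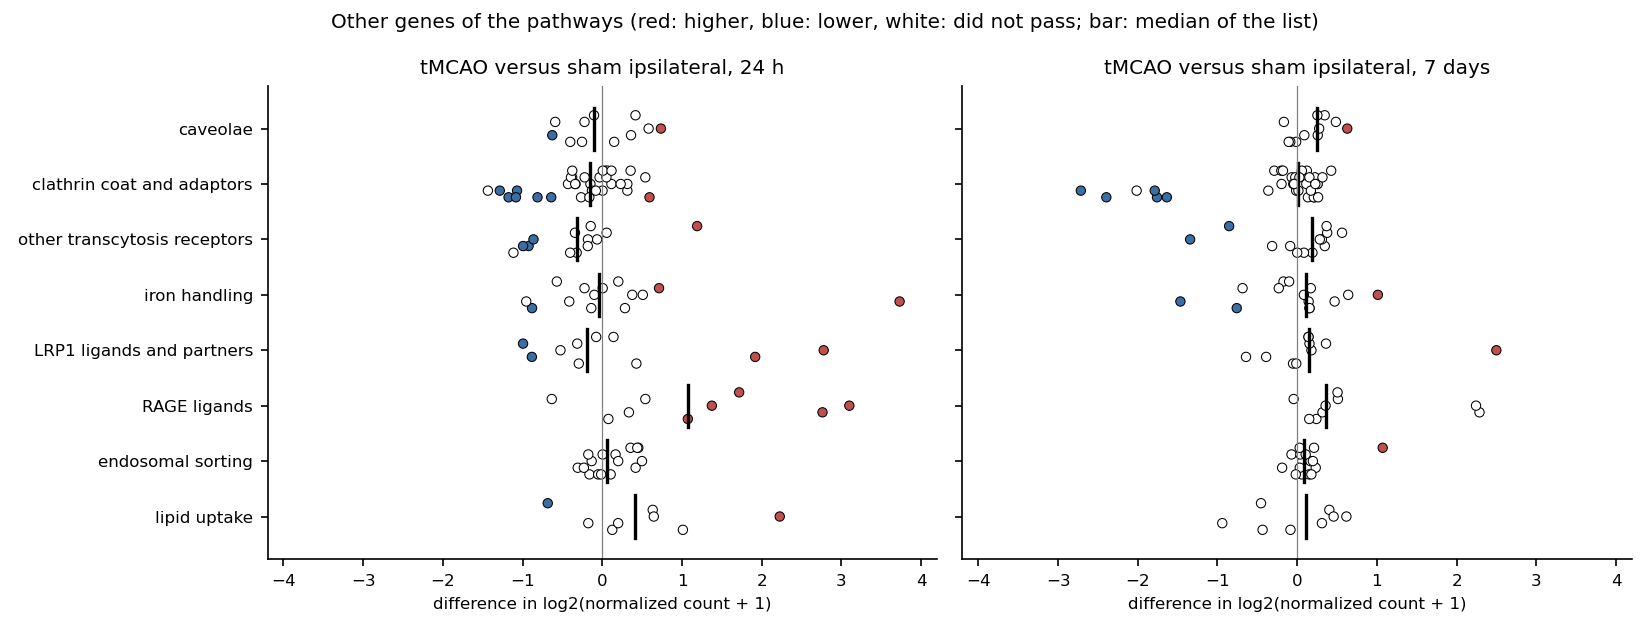
Difference in log2(normalized count + 1) between tMCAO and sham ipsilateral vessels for the genes of 8 pathway lists, at 24 h and 7 days. Red points were higher and blue points lower in the test, white points did not pass, and the black bar is the list's median. RAGE ligands have a median of 1.07 at 24 h, and the lowest clathrin point at 7 days is Snap91 with -2.71.

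Among 13 other receptors linked to transcytosis, 3 were lower at 24 h, beside 8.23% of all tested genes. Igf1r, the receptor of insulin-like growth factor 1, fell by 0.93 on the log2 scale (SE 0.19, adjusted p = 0.0012, limma), with a mean of 4437 ± 194 after tMCAO and 8475 ± 1175 after sham surgery (SD, n = 3). Lrp8 and Vldlr, which both bind reelin, fell by 0.99 and 0.86 (adjusted p = 0.0015 and 0.024). Without single libraries 2 to 4 of the list were lower. At 7 days Vldlr fell by 1.34 (adjusted p = 0.0018), while Igf1r and Lrp8 did not pass, with differences of 0.35 and -0.31 (adjusted p = 0.23 and 0.34). The list's median was -0.32 at 24 h and 0.19 at 7 days.

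Ager, the gene of RAGE, was the only one of the 8 to pass against sham at 7 days. It is a short gene at chr17:34597862-34600936 on the plus strand. Its ipsilateral values at 7 days were 44, 31 and 35 after sham surgery and 62, 76 and 79 after tMCAO, with all tMCAO libraries above all sham libraries, as in 13.4% of all genes. Contralateral values at 7 days were 37, 46 and 45 after sham surgery and 31, 45 and 50 after tMCAO. At 24 h the ipsilateral values were 48, 40 and 44 after sham surgery and 26, 40 and 46 after tMCAO, which overlapped. The highest of the other 21 libraries held 61 counts. Counts this low carry a larger relative counting error than those of the other 7 genes.

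Ager rose by 0.97 on the log2 scale against sham at 7 days (SE 0.23, adjusted p = 0.0066, limma). Against the contralateral hemisphere of tMCAO mice it rose by 0.79 (SE 0.23, adjusted p = 0.023), 1 of 8 genes higher beside 3.03% of all genes, with 0 of 8 lower beside 9.98%. None of the 8 was lower there at an unadjusted p under 0.05, by which 1 of 8 differed (26.9% of all genes). Libraries did not overlap for Ager alone (25.3% of all genes), with 0 of 8 lower (14.6%). From 24 h to 7 days ipsilaterally after tMCAO it rose by 0.97 (SE 0.23, adjusted p = 0.0071). Its stroke effect differed between the time points by 1.23 (SE 0.33, adjusted p = 0.023), being -0.27 at 24 h (adjusted p = 0.41). Centred on endothelial markers, the change against sham was no longer past the threshold (adjusted p = 0.056), and neither were the interaction and the change against the contralateral side. The interaction was also lost without any one of 4 libraries and the contralateral comparison without any one of 3, with the values given in the closing section, whereas the comparison with sham passed without any single library. Endothelial markers at 7 days summed to 158391 to 180623 after tMCAO and 145695 to 152758 after sham surgery. The nearest genes of the table moved little, Pbx2 (461 bases before Ager) by 0.16 and Rnf5 (154 bases after it) by -0.22 at 7 days, and neither passed.

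Of 9 ligands of RAGE, 5 were higher at 24 h (10.0% of all genes) and 0 lower (8.23%). At 7 days 0 passed in either direction (13.2% of all genes), where S100a1 and S100a13 had adjusted p under 0.05 but changes under the fold limit. Without single libraries 3 to 5 were higher and 0 to 1 lower at 24 h, and 0 to 3 were higher at 7 days. With endothelial centring 4 were higher and 1 lower at 24 h. At 24 h S100a9 rose by 3.10, S100a8 by 2.76, S100a4 by 1.72, S100a11 by 1.37 and S100a6 by 1.07 on the log2 scale (adjusted p = 0.027, 0.045, 0.0010, 8.1e-05 and 0.00056, limma). S100a8 and S100a9 also count among the neutrophil and monocyte markers, of which the sum at 24 h was 3217 to 6117 after tMCAO and 322 to 1189 after sham surgery. Hmgb1, a nuclear protein and ligand, differed by 0.08. The list's median was 1.07 at 24 h and 0.36 at 7 days, beside -0.02 and 0.02 for all genes. S100a8 and S100a9 differed by 2.29 and 2.24 at 7 days with adjusted p of 0.14.

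Of 16 genes of endosomal sorting, which direct vesicles after uptake, 0 passed at 24 h in either direction by limma (18.3% of all genes). Rab5c (0.50), Vps29 (0.44), Rab8a (0.35) and Snx27 (-0.23) were past the adjusted p but under the fold limit. At 7 days 1 was higher (3.27% of all genes), Rab4b, by 1.07 (adjusted p = 0.019), with a mean of 33.3 counts after tMCAO and 15.7 after sham surgery, though not without every single library (0 to 1 higher).

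Control comparisons gave no call among the 8 genes. Between the sham hemispheres, 0 of 8 passed at 24 h and at 7 days (0% of all genes each), and 0 of 8 had an unadjusted p under 0.05 (2.30% and 2.25% of all genes). Sham hemispheres did not overlap for 0 of 8 genes at 24 h (5.36% of all genes were higher and 6.10% lower) and for Cav2, which was lower, at 7 days (4.37% higher and 2.63% lower). Between the contralateral hemispheres of tMCAO and sham mice, 0 of 8 passed at 24 h (0% of all genes) and 0 of 8 at 7 days (0.0313%). At an unadjusted p under 0.05 there were 0 at 24 h (2.53% of all genes), and 3 at 7 days (10.3%), with Cav1 and Cav2 lower and Plvap higher. These contralateral groups did not overlap for 1 of 8 genes at 24 h, Plvap (8.20% of all genes), and for 1 of 8 at 7 days, Cav1 (9.80%), both lower after tMCAO. From 24 h to 7 days 0 of 8 passed in ipsilateral sham (0.476%), contralateral sham (0.332%) and contralateral tMCAO vessels (0%). At an unadjusted p under 0.05 there were 3, 2 and 3 in these comparisons, where 14.1%, 10.8% and 16.5% of all genes were.

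The genes most like each member over the 24 libraries were named by their Pearson correlation on the log2 scale, as a description. Libraries, scaling and group differences are shared by all genes, which raises such values. For Cav1 it was Cavin1, the coat protein cavin-1, with 0.93, and for Cav2 Tmem123 with 0.90. For Mfsd2a it was Gatm with 0.94, followed by Tdrp with 0.91 and the amino acid transporter Slc38a3 with 0.88. For Tfrc it was Stard8 (0.92), for Lrp1 Dusp4 (0.90), for Cltc Rlim (0.89), for Plvap Exoc3l2 (0.85) and for Ager Ccdc163 (0.79). The 8 genes themselves were less alike. Mfsd2a and Tfrc correlated at 0.67 over all libraries and at 0.24 within groups, and Mfsd2a and Plvap at -0.48 and 0.02.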

How the data were processed

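The labels gave each of the 24 libraries its group. The authors removed adapters, aligned the reads with STAR to mm10, excluded reads that matched several genes, normalized the counts with DESeq2 size factors and dropped outlying samples, as the paper states. The submitters' processing notes name STAR 2.5.2b, featureCounts 1.5.1 and DESeq2 1.6.2. The deposited values are a score in that reads were divided by a size factor and rounded to whole numbers, so DESeq2 and edgeR were not run here. The strand setting of the counting is not given in the sources used here.

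For each gene, log2(value + 1) was fitted with limma 3.58.1 (R 4.3.3), with a trended prior variance and the 8 groups fitted together. The 15982 genes with a mean above 5 were tested, with Benjamini-Hochberg adjustment, an adjusted p limit of 0.05 and a log2 limit of 0.585. Fold changes on this scale understate changes of low genes. The fit was first tested on simulated data. Ratios were compared by 2-sided exact permutation tests (scipy 1.17.1). Exon lengths came from GENCODE M21. No raw read counts were used, so intervals cover the spread between libraries only, and replicates are pools of mice.

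The members, the pathway and marker lists and the tests were chosen with earlier results of these data known. Named genes are the 8 members, the called genes of each pathway list where a direction had 5 or fewer (otherwise the largest rise and fall), and the genes most correlated with each member. Dnajc6, Dnm1, Amph, Sh3gl2 and Fcho2 at 24 h, Hmgb1, Pbx2, Rnf5 and genes under the fold limit were named after their values were seen. Same-numbered sham hemispheres pair, since every pair's residuals correlated above 0.1 (0.145 to 0.467), and the block changed no call among them.

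Results of some pathway genes are not reported here. Alternatives were a pseudocount of 0.5, no filter, a minimum mean of 20, median centring, quantile normalization, centring on endothelial markers, 2 kinds of block, only the compared groups, no fold limit and each library left out.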

Additional observations from a re-analysis of the deposited data

Results flagged for a closer look

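The stroke effect in ipsilateral vessels differed between 24 h and 7 days, by a test of the difference itself (interaction in limma, Benjamini-Hochberg adjusted over 15982 genes), for Ager among the 8 genes. The difference was 1.23 on the log2 scale (adjusted p = 0.023), and the 3 tMCAO libraries of 7 days lay above all other libraries.

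Among the pathway genes named, 8 were set apart by the same test. The stroke effect was higher at 7 days than at 24 h for Gulp1 by 1.36 (adjusted p = 0.023), Igf1r by 1.27 (0.0051), Cavin2 by 0.89 (0.035) and Fcho2 by 0.85 (0.022). It was lower at 7 days, with differences of -3.26 for Hmox1 (adjusted p = 0.00042), -2.56 for Plau (0.00059), -1.02 for S100a11 (0.032) and -0.92 for S100a6 (0.043). Hmox1, Plau and Igf1r passed under every alternative and without any single library. Of 12 fits that each left out 1 library, the call was lost in 9 for S100a6, 8 for S100a11, 8 for Cavin2, 5 for Gulp1 and 4 for Fcho2, and that of S100a6 was also lost under 2 and that of S100a11 under 1 of 9 other alternatives.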

How the results depend on the processing

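The falls of Mfsd2a at 24 h, against sham and against the contralateral hemisphere, passed under every alternative and without any single library. The number of the 8 genes that passed changed as follows. At 24 h against sham, 1 instead of 2 was lower with quantile normalization or a replicate block (by number), as Tfrc was lost, and 1 to 2 without single libraries. At 24 h against the contralateral side 1 was higher (Plvap) with only the compared groups, 3 instead of 2 were lower (Cav2 added) with median centring or no fold limit, and 1 to 3 were lower without single libraries. At 7 days against sham, endothelial centring left 0 higher and made 1 lower (Lrp1), and without single libraries 1 to 2 were higher. At 7 days against the contralateral side, 0 were higher with endothelial centring or only the compared groups, and 0 to 1 without single libraries. From 24 h to 7 days, 1 was higher with only the compared groups, 1 was lower (Lrp1) with endothelial centring or no fold limit, and without single libraries 0 to 2 were higher and 0 to 1 lower. The interaction left 0 with endothelial centring and 0 to 1 without single libraries. The interaction of Ager had adjusted p of 0.062, 0.053, 0.073 and 0.052 without sham replicate 1 of 24 h, sham replicate 2 of 7 days, tMCAO replicate 1 of 24 h and tMCAO replicate 3 of 7 days. The comparison of Ager with the contralateral side at 7 days was lost without contralateral replicate 1 or ipsilateral replicate 2 or 3, and its rise from 24 h to 7 days with only the compared groups or without ipsilateral replicate 1 of 24 h.

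Some values that had not passed changed sign. Tfrc at 7 days against sham was 0.0105 with median centring and -0.55 to 0.31 without single libraries. Cltc was -0.0476 at 24 h with endothelial centring and -0.18 to 0.0211 at 7 days without single libraries. Lrp1 at 24 h ranged from -0.41 to 0.0046 without single libraries. The interaction of Cav2 was -0.0031 with endothelial centring and -0.0764 to 0.27 without single libraries. The causes were not tested. Endothelial centring moved the median of all genes by -0.18 at 24 h and by -0.26 at 7 days against sham.

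Among pathway genes named against sham at 24 h, endothelial centring ended the calls of Cavin3, Ap2s1, Ftl1 and S100a8, median centring that of Ap2s1, quantile normalization those of Ap2s1 and Amph, the replicate block those of Amph, Sh3gl2 and S100a8 (adjusted p = 0.053, 0.058 and 0.054), no filter that of Amph and only the compared groups that of Vldlr. Of 6 fits without 1 library each, the call was lost in 6 for Amph and Sh3gl2, 5 for S100a8, 4 for Cavin2, Cavin3 and Vldlr, 3 for Ap2s1, Dnm1 and S100a9 and 2 for Fcho2. At 7 days the calls of Steap2 (quantile normalization, replicate block with adjusted p = 0.052, 6 of 6 libraries), Rab4b (endothelial centring, only the compared groups, 3 of 6), Fth1 (only the compared groups) and Flot1 (1 of 6, beside the settings given above) were lost.

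In the Cav1 to Cav2 ratio, alternatives added after seeing the data (a pseudocount of 0.5, each library left out) kept the direction, at 0.21 to 0.62.

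For hemispheres of tMCAO mice the numbers are not shown to pair, since a pair's correlation was as low as 0.066 at 24 h and 0.059 at 7 days, although 6 of 6 libraries correlated best with their own number. With the mouse pool as a block the calls there were the same, 2 lower at 24 h and 1 higher at 7 days. Numbers do not pair tMCAO with sham libraries or the time points. The replicate block changed no other call among the 8 genes. Depth limits Ager most, at 26 to 79 normalized counts.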
